A study of Rattus norvegicus with 9 samples.

Results

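The multiciliated airway cell genes described here are 41 rat genes of motile cilia, chosen by name as known parts of the multiciliated cell. The rule uses no measured value beyond the presence of counts, but the genes were chosen with earlier results of these data known. Of the 41, 25 were in the count table of 17465 genes, and 24 of these had counts in at least 3 libraries, which was the condition for membership. Spag6 was in the table at 0 in all 9 libraries, so it was not counted as a member. Mcidas, Dnah2, Dnah3, Dnah5, Dnah6, Dnah9, Dnah10, Dnah11, Dnah12, Spag17, Hydin, Ccdc113, Cfap43, Cfap44, Cfap53 and Pifo were not analysed here. The libraries were made from frozen lungs of Sprague-Dawley rat fetuses in 3 groups of 3, and in all 9 from total RNA after ribosomal RNA depletion. Control lungs had no treatment. Hypoplastic lungs, underdeveloped because of oligohydramnios (a lack of amniotic fluid), had no treatment either. Treated lungs were hypoplastic lungs that received AFSC-EVs, the vesicles that amniotic fluid stem cells release. The sources used here do not give fetal age, vesicle dose or litter. The labels number the libraries without saying that each came from another fetus, so p-values measure the spread between these libraries, which may in part be technical.

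Multiciliated cells line the airways and carry many motile cilia whose beating moves mucus and fluid. Their differentiation depends on regulators of centriole amplification. It also depends on Foxj1 and the RFX factors, which together turn on the genes of the axoneme, the microtubule core of the cilium. In the axoneme, dynein arms generate the force, radial spokes and the central pair coordinate it, a molecular ruler sets the repeat along the doublet microtubules, and tektins reinforce them from within. The genes fall into these roles as 5 regulators (4 with counts), 13 genes of dynein arms and their assembly (5 with counts), 10 genes of radial spokes, central pair, ruler and dynein regulatory complex (7 with counts), and 13 genes of tektins and other axoneme or ciliated cell proteins (8 with counts).

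RFX factors bind the X-box, a promoter element found in many cilium genes, and the promoter sequences below are shown because they hold its half-site in members measured here. Windows of 300 bases, from 250 before to 50 after the start of transcription, came from RefSeq (GRCr8), and 17 of the 24 members matched one. Foxj1, Dnaaf1, Rsph1, Rsph4a, Spag16, Cfap52 and Tppp3 did not. The half-site GTTGCCA was searched on both strands and lay in 5 of the 17 windows (29.4%), against 4.56% of all 33469 RefSeq windows and 4.03% of the windows of genes in the count table. Capitals mark it, written TGGCAAC where it lies on the other strand, with up to 40 bases to each side.
Ccno, chr2:46363824-46363871, plus strand: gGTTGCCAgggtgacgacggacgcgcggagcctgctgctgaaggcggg
Drc1, chr6:31779230-31779316, minus strand: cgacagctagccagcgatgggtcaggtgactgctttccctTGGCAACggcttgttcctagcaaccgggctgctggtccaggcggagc
Tekt1, chr10:57479114-57479200, minus strand: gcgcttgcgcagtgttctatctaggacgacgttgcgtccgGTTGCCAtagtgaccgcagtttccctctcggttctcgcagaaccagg
Lrrc23, chr4:159277741-159277827, minus strand: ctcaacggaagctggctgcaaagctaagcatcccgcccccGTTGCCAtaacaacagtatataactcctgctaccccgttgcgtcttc
Lrrc23, chr4:159277860-159277946, minus strand: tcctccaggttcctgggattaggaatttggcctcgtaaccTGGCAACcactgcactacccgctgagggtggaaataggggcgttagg
Sntn, chr15:13956108-13956194, minus strand: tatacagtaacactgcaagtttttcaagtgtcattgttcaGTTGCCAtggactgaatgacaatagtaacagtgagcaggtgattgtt

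With the start of transcription as base 0, the half-site began at -249 in Ccno, -20 in Drc1, -39 in Tekt1, -23 and -142 in Lrrc23, and -64 in Sntn. Lrrc23 was the member with a copy on each strand. Over all 41 named genes, 31 had a window and 11 of these (35.5%) held the half-site in at least 1 window. Counted by gene in the same way, the share was 4.86% of all RefSeq genes and 4.13% of genes in the count table. A full X-box, written GTTNCC, then 0 to 3 bases, then GGNAAC, whose arms can overlap the half-site, was found in 0 of the 17 members' windows and in 0.902% of all windows. The forkhead core TGTTTAC was found in the window of Sntn alone among the 17, and in 3.78% of all windows. These are matches of letters in one window per start, and binding was not measured.

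Library totals were 56922779 to 88243188 estimated counts, with 13836 to 14089 genes above 0. Ribosomal and 7SL RNA held 14.07% to 19.93% of the counts. In 1 model over all 9 libraries (edgeR), 12966 genes were tested. Levels are given as CPM, the usual depth-scaled count, on the TMM-scaled library size, and were compared for 1 gene between libraries, not between genes. The lungs held lung epithelial RNA by the markers Nkx2-1 (16581 to 33525 counts per library) and Sftpc (17869 to 64388 counts). Foxj1, the defining factor of the multiciliated cell, was at 10.5 to 49.4 CPM in all 9 libraries. In RNA of bulk lung, fewer multiciliated cells and less of a transcript per cell cannot be told apart. Of the 24 members, 22 passed the low-count filter. The other two were Spag16, a protein of the central pair (0 to 5 counts per library), and Sntn, sentan of the ciliary tip (0 to 7 counts).

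The first comparison asked how hypoplastic lungs differ from control lungs. Multiciliated cell genes had mostly lower mean levels in hypoplastic lungs, and no member's difference passed the test. Fold changes of 18 of the 22 tested members were below 0 and those of 4 above, with a median log2 fold change of -0.28 (range -0.81 to 0.30). Over all tested genes 48.1% were below 0, with a median of 0.01. At an adjusted p under 0.05, edgeR called 0 of the 22 members, against 0.00771% of all tested genes, and DESeq2 called 0 of the 22, against 1.56% of all genes. Of the members, 0 had an unadjusted p under 0.05 in either direction (edgeR and DESeq2), against, in edgeR, 6.67% of all genes higher and 5.69% lower, and the smallest unadjusted p of a member was 0.0957 (Cfap52). In 1 member, Rsph4a, every hypoplastic library lay below every control library, against 9.05% of all genes. No member lay above in every library, against 7.68% of all genes. The lower median rested on control library 2: without it, 8 of the 22 members were below 0, against 47.1% of all genes in that fit, and the median was 0.09. Without control library 3, the median was -0.43 and 1 member was lower at an unadjusted p under 0.05, against 5.98% of all genes in that fit.

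The second comparison asked what the vesicles changed in hypoplastic lungs. Multiciliated cell genes had nearly the same middle level in treated and untreated hypoplastic lungs, with 13 of 22 fold changes below 0 and 9 above, and a median log2 fold change of -0.02 (range -0.51 to 0.19). Over all tested genes 51.9% were below 0, with a median of -0.01. edgeR called 0 members at an adjusted p under 0.05, against 0% of all genes, and DESeq2 called 0, against 0.132%. At an unadjusted p under 0.05 there were 0 members (edgeR), against 2% of all genes higher and 3.56% lower. Lrrc23 lay lower in every treated than in every hypoplastic library, as did 4.74% of all genes, and no member lay higher in every library, against 5.07%. Without treated library 3, 18 of the 22 were below 0, against 52.0% of all genes in that fit, and the median was -0.36. In the same fit 4 members were lower at an unadjusted p under 0.05, against 4.5% of all genes. The hypoplastic libraries serve in this and the first comparison, so their values move both.

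The third comparison set treated against control lungs, which share libraries with both comparisons above. Here 21 of the 22 fold changes were below 0, the other being Dnai2 at 0.06, and the median log2 fold change was -0.34 (range -0.96 to 0.06). Over all tested genes 49.4% were below 0, with a median of 0.00. At an adjusted p under 0.05 edgeR and DESeq2 each called 0 members, against 0% (edgeR) and 0.108% (DESeq2) of all genes. At an unadjusted p under 0.05, 1 member was lower in edgeR (Rsph4a), against 2.5% of all genes, and 0 were higher, against 1.67%. In 1 member, Ccdc39, every treated library lay below every control library, against 5.02% of all genes, and in 0 members above, against 4.37%. Single libraries moved these values. Without control library 2, 14 of 22 were below 0, against 48.6% of all genes in that fit, and the median was -0.12. There 0 members were lower at an unadjusted p under 0.05 (edgeR), against 1.31% of all genes. Without treated library 3, 22 of 22 were below 0, against 51.5% of all genes, and the median was -0.61. In that fit 7 members were lower at an unadjusted p under 0.05, against 2.27% of all genes. This count was 2 without control library 1 (2.61% of all genes), 5 without control library 3 (3.04%, members' median -0.53) and 0 without treated library 1 (1.74%).

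**Figure D1:**
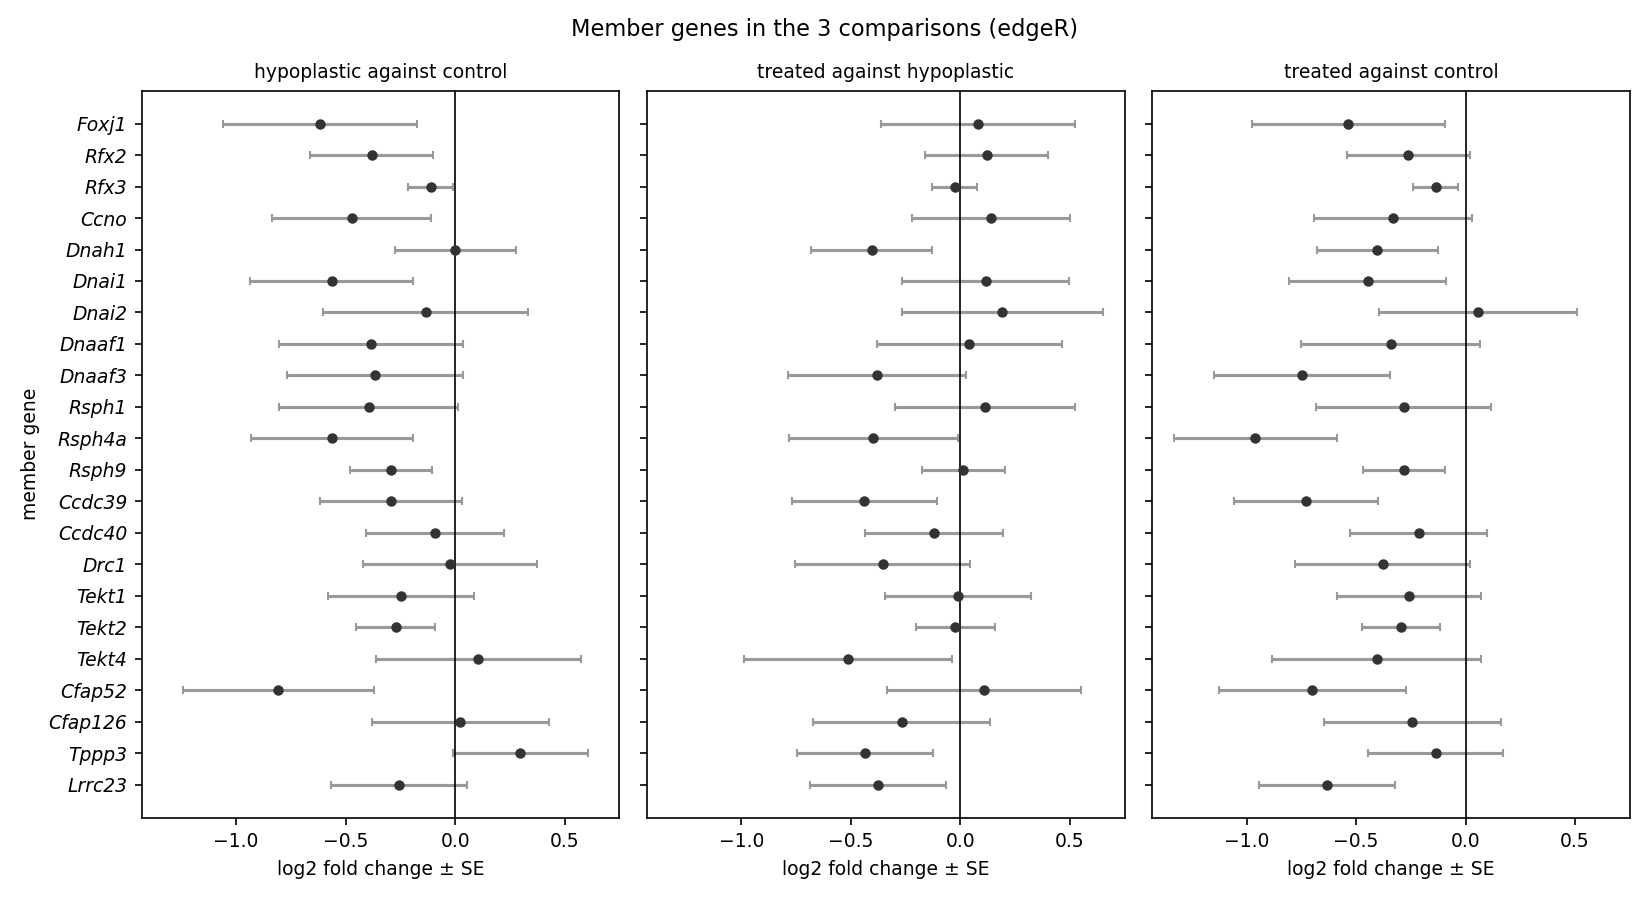
Log2 fold change of each of the 22 tested member genes (rows) in the 3 comparisons, with points for the edgeR estimate and bars for ± 1 standard error. Points lie below 0 for 18, 13 and 21 of the 22 genes, and no gene passed an adjusted p of 0.05.

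Single libraries stood apart from others of their group in the multiciliated cell genes. The highest library of a group exceeded its lowest by a median of 1.96 times in control lungs, 1.42 times in hypoplastic lungs and 1.93 times in treated lungs, against 1.30, 1.32 and 1.31 times over all tested genes. Control library 2 was the highest of the 9 libraries in 14 of the 22 members (63.6%), against 22.4% of all tested genes. It was the highest control in 19 of 22 (86.4%), against 40.4% of all tested genes. Its level was a median of 1.68 times the mean of the other control libraries (0.867 to 3.20 times over the members, against a median of 1.005 times over all tested genes). Among the treated libraries, library 3 was the highest in 17 of 22 members (77.3%), against 38.1% of all genes, at a median of 1.67 times the mean of the other two. Treated library 1 or 2 was the lowest of all 9 in 14 of 22 members (63.6%), against 15.8% of all genes. The hypoplastic libraries were closer to each other over the members as a whole. Summed member levels were 153.4 to 165.1 CPM, against 140.8 to 245.0 CPM in control and 117.3 to 174.8 CPM in treated libraries. This did not hold in every role. For the dynein genes the median of highest over lowest was 1.84 times in hypoplastic, 1.52 times in control and 2.72 times in treated lungs. For the regulators it was 1.62, 2.41 and 1.21 times.

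**Figure D2:**
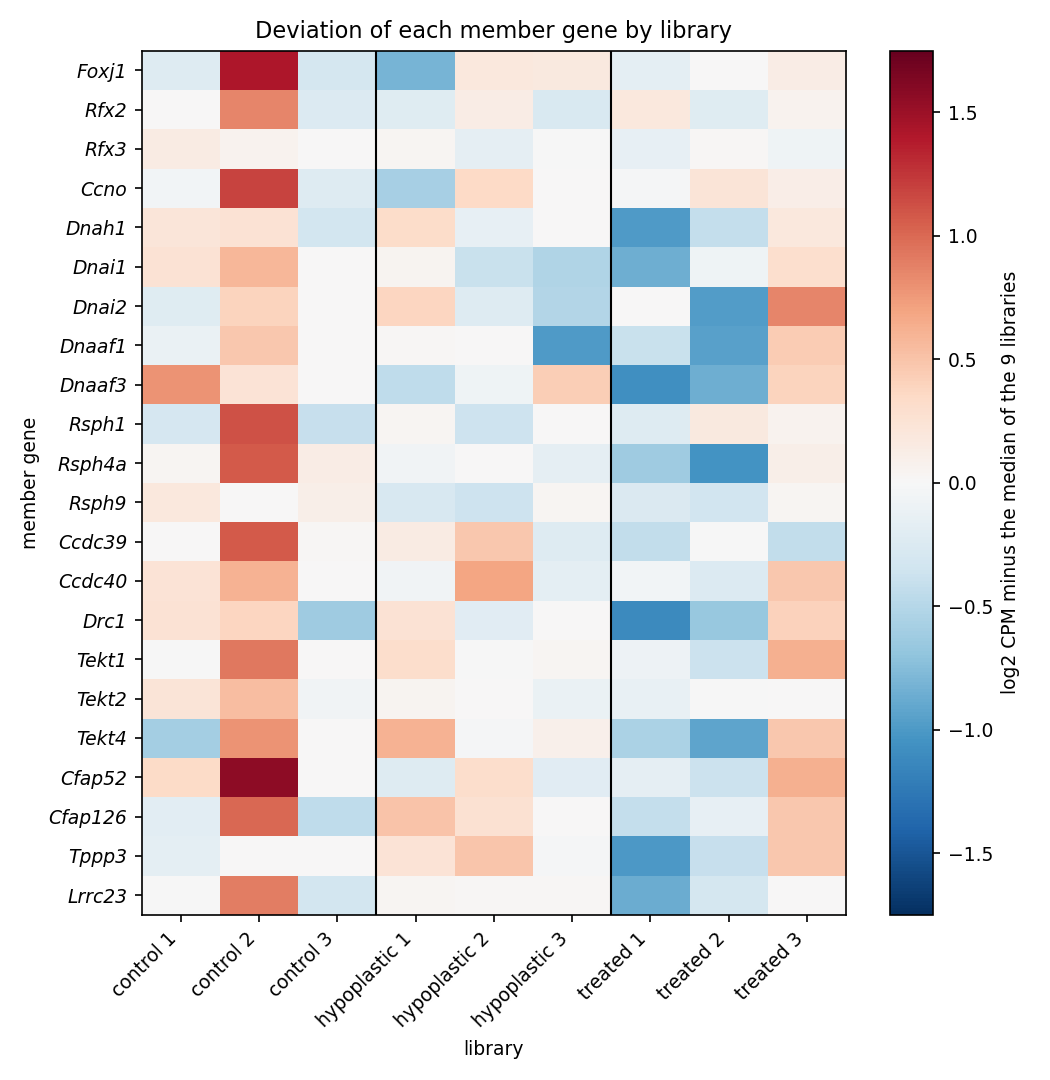
Deviation of each of the 22 tested member genes (rows) in each library (columns), as log2 CPM minus that gene's median over the 9 libraries, in colour from blue (lower) to red (higher). Control 2 is above the median in nearly every row (median 0.70), and treated 1 and 2 are below it in most rows (medians -0.32 and -0.33) while treated 3 is above (median 0.24).

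The treated libraries are given here by role. The deviation is a library's log2 CPM minus the gene's median over all 9 libraries. For the 5 genes of dynein arms and their assembly, the median deviation was -0.86, -0.85 and 0.39 in treated libraries 1, 2 and 3. For the 7 tested genes of tektins and other axoneme or ciliated cell proteins it was -0.42, -0.37 and 0.47, and for the 6 of spokes, ruler and regulatory complex -0.34, -0.29 and 0.08. For the 4 regulators it was -0.08, 0.01 and 0.09, so treated libraries 1 and 2 were low in the 3 axoneme roles and near the median in the regulators. Control library 2 stood high in all 4 roles, with median deviations of 1.02 for regulators, 0.39 for dynein genes, 0.84 for spokes and ruler, and 0.89 for tektins and others. Roles were not tested against each other.

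Among the regulators, Foxj1 (gene ID 116557), the forkhead factor needed for motile cilia, was at 15.9, 49.4 and 15.0 CPM in control lungs, 10.5, 21.0 and 20.8 CPM in hypoplastic lungs and 16.5, 18.5 and 20.3 CPM in treated lungs. Control library 2 was 3.20 times the mean of the other control libraries, which lay within the range of the hypoplastic libraries. The means were 26.8 ± 19.6, 17.4 ± 6.01 and 18.4 ± 1.91 CPM (SD, n = 3 each). Hypoplastic against control lungs gave -0.62 ± 0.44 as the log2 fold change (SE; edgeR adjusted p = 0.592) and became 0.17 without control library 2. Treated against hypoplastic lungs gave 0.08 ± 0.44 (SE; edgeR adjusted p = 0.987). Ccno (gene ID 499528), cyclin O, which acts in the amplification of centrioles, was at 13.3, 31.2 and 11.7 CPM in control, 9.13, 17.5 and 13.7 CPM in hypoplastic and 13.5, 16.0 and 14.9 CPM in treated lungs. It followed the same order among the controls as Foxj1 at a smaller size, with control library 2 at 2.50 times the others and groups that overlapped. Its log2 fold changes were -0.47 ± 0.36 in hypoplastic against control lungs and 0.14 ± 0.36 in treated against hypoplastic lungs (SE; edgeR adjusted p = 0.620 and 0.974).

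Rfx2 (gene ID 301121), an RFX factor that works with Foxj1 on cilium genes, was at 5.50, 9.99 and 4.64 CPM in control, 4.76, 6.04 and 4.58 CPM in hypoplastic and 6.24, 4.76 and 5.73 CPM in treated lungs. Again control library 2 was the highest and the other 8 libraries overlapped between groups. Hypoplastic against control lungs gave -0.38 ± 0.28 as the log2 fold change (SE; edgeR adjusted p = 0.605). Rfx3 (gene ID 361746), an RFX factor of motile and primary cilia, was at 34.5, 32.6 and 31.2 CPM in control, 32.0, 28.0 and 31.0 CPM in hypoplastic and 28.2, 31.5 and 29.7 CPM in treated lungs. Rfx3 was the regulator that did not stand high in control library 2, at 0.992 times the mean of the other controls. Its log2 fold change was -0.11 ± 0.10 in hypoplastic against control lungs and -0.03 ± 0.10 in treated against hypoplastic lungs (SE; edgeR adjusted p = 0.684 and 0.981). These are the narrowest errors among the named members.

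**Figure D3:**
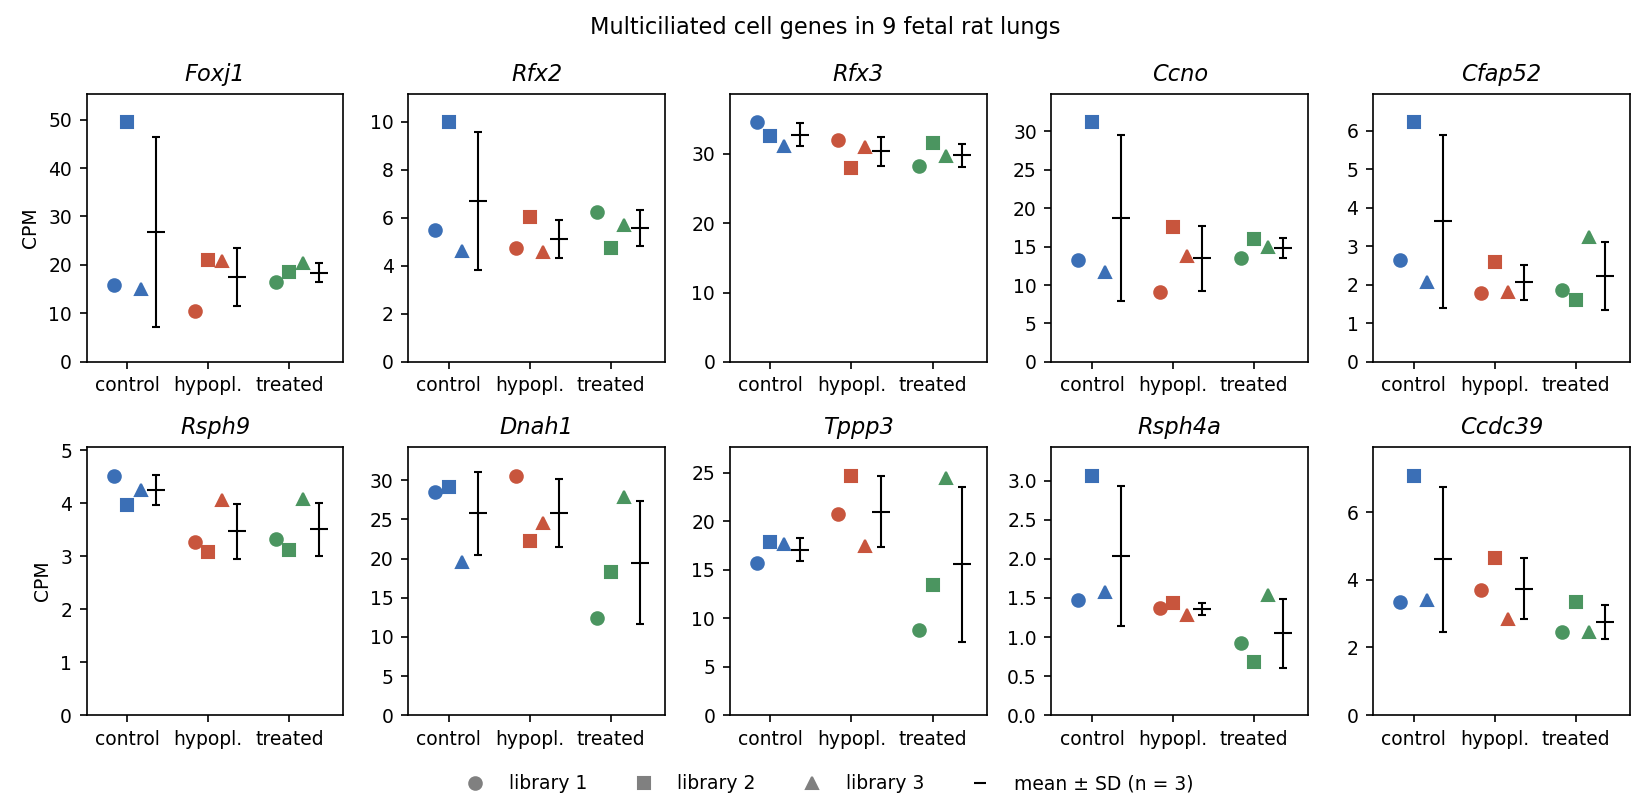
CPM in each of the 9 libraries for the 10 named member genes (1 panel each, y axis from 0), with 1 symbol per library number and a bar for the group mean ± SD (n = 3). Control library 2 (square) stands apart for Foxj1, Rfx2, Ccno, Cfap52, Rsph4a and Ccdc39, and treated library 3 (triangle) is the highest treated library for Foxj1, Dnah1, Tppp3, Rsph4a, Rsph9 and Cfap52.

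Of the dynein genes, Dnah1 (gene ID 171339), a heavy chain of the inner arms, was at 28.5, 29.1 and 19.6 CPM in control, 30.6, 22.2 and 24.5 CPM in hypoplastic and 12.3, 18.3 and 27.8 CPM in treated lungs. Treated libraries 1 and 2 were the lowest of the 9, and treated library 3 lay within the range of the hypoplastic libraries. The means of control and hypoplastic lungs were 25.8 ± 5.32 and 25.8 ± 4.34 CPM, and that of treated lungs was 19.5 ± 7.82 CPM (SD, n = 3 each). The log2 fold change of treated against hypoplastic lungs was -0.40 ± 0.28 (SE; unadjusted p = 0.177, edgeR adjusted p = 0.931), and that of hypoplastic against control lungs was 0.00 ± 0.28 (edgeR adjusted p = 0.997). Dnai1 and Dnai2, intermediate chains of the outer arms, ranged over the 9 libraries from 0.369 to 1.05 and from 0.502 to 1.86 CPM. Dnaaf1 and Dnaaf3, factors that assemble dynein arms in the cytoplasm, ranged from 0.543 to 1.55 and from 2.12 to 7.71 CPM. Treated library 1 was the lowest library for Dnah1, Dnai1 and Dnaaf3, treated library 2 for Dnai2, and hypoplastic library 3 for Dnaaf1. In all 5 of these genes treated library 3 was the highest treated library.

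In the radial spokes, Rsph4a (gene ID 309767), a protein of the spoke head, was at 1.47, 3.07 and 1.57 CPM in control, 1.37, 1.44 and 1.29 CPM in hypoplastic and 0.922, 0.682 and 1.54 CPM in treated lungs. Every hypoplastic library was below every control library, by 1.44 against 1.47 CPM at the nearest, and treated library 3 overlapped the controls. The log2 fold change was -0.56 ± 0.37 in hypoplastic against control lungs (SE; unadjusted p = 0.162, edgeR adjusted p = 0.554). In treated against control lungs it was -0.96 ± 0.37 (SE; unadjusted p = 0.0288, edgeR adjusted p = 0.998). Rsph9 (gene ID 316238), another spoke head protein, was at 4.52, 3.96 and 4.24 CPM in control, 3.26, 3.09 and 4.05 CPM in hypoplastic and 3.32, 3.12 and 4.07 CPM in treated lungs. Libraries of hypoplastic and treated lungs spanned nearly the same range, and the third library of each lay within the range of the controls. Control library 2 was the lowest control here, in contrast to most members. Against control lungs, the log2 fold change of hypoplastic lungs was -0.29 ± 0.19 (SE; unadjusted p = 0.153, edgeR adjusted p = 0.545).

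Ccdc39 (gene ID 310315), which with Ccdc40 forms the molecular ruler, was at 3.34, 7.08 and 3.39 CPM in control, 3.71, 4.65 and 2.84 CPM in hypoplastic and 2.46, 3.34 and 2.47 CPM in treated lungs. Treated libraries were all below the control libraries, but the nearest were 3.336 and 3.340 CPM, so the groups touched. The log2 fold change of treated against control lungs was -0.73 ± 0.33 (SE; unadjusted p = 0.0511, edgeR adjusted p = 0.998). Ccdc39 was the axoneme gene among the named members in which treated library 3 was as low as treated library 1. Of the other members in this role, Ccdc40 ranged from 1.39 to 2.66 CPM over the 9 libraries, Rsph1, a spoke head protein, from 1.04 to 3.05 CPM, and Drc1, of the dynein regulatory complex, from 1.34 to 3.89 CPM. Rsph1 was highest in control library 2, Ccdc40 in hypoplastic library 2 and Drc1 in treated library 3. Spag16 had 0, 1 and 0 counts in control, 3, 5 and 3 in hypoplastic and 2, 1 and 3 in treated libraries, too few to test. Spag6l, a close relative of Spag6 that RefSeq also lists under the symbol Spag6, was not counted as a member and was at 3.30 to 7.65 CPM.

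Among tektins and other axoneme proteins, Cfap52 (gene ID 303233), a protein inside the doublet microtubules, had the smallest unadjusted p of any member in hypoplastic against control lungs. It was at 2.64, 6.22 and 2.09 CPM in control, 1.78, 2.60 and 1.81 CPM in hypoplastic and 1.87, 1.60 and 3.24 CPM in treated lungs. Control library 2 was 2.64 times the mean of the other controls, and these overlapped the hypoplastic libraries. The log2 fold change was -0.81 ± 0.44 (SE; unadjusted p = 0.0957, edgeR adjusted p = 0.478). Tppp3 (gene ID 291966), a tubulin-binding protein abundant in ciliated cells, was at 15.7, 17.9 and 17.7 CPM in control, 20.8, 24.7 and 17.5 CPM in hypoplastic and 8.83, 13.4 and 24.4 CPM in treated lungs. Treated lungs spanned the widest range, with library 1 the lowest of the 9 and library 3 close to the highest hypoplastic library. The log2 fold change was 0.30 ± 0.31 in hypoplastic against control lungs and -0.43 ± 0.31 in treated against hypoplastic lungs (SE; edgeR adjusted p = 0.725 and 0.939).

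Lrrc23, a radial spoke protein counted here among tektins and other axoneme proteins, was the member with both half-sites printed above. It ranged from 5.35 CPM in treated library 1 to 18.1 CPM in control library 2. Its 3 hypoplastic libraries were within 9.88 to 9.97 CPM, and the highest treated library, at 9.76 CPM, was just below them. Tekt1, Tekt2 and Tekt4, tektins of the doublet microtubules, ranged from 2.20 to 5.46, from 4.99 to 7.95 and from 0.371 to 1.28 CPM, each highest in control library 2 and lowest in a treated library. Cfap126, which acts in the placement of basal bodies, ranged from 1.11 to 3.09 CPM, also highest in control library 2. Sntn had 2, 1 and 0 counts in control, 7, 3 and 4 in hypoplastic and 5, 3 and 6 in treated libraries. These low counts of Sntn did not pass the filter and were not tested.

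Other motile cilium genes were also highest in control library 2 for the most part. Of 89 further genes listed for multiciliogenesis and motile cilia, 58 were in the table and 54 were tested. Control library 2 was the highest of the 9 libraries in 37 of these 54 (68.5%, against 22.4% of all genes), and treated library 3 the highest treated library in 32 of 54 (59.3%, against 38.1%). In hypoplastic against control lungs 42 of 54 were below 0 (median log2 fold change -0.15), in treated against hypoplastic lungs 35 of 54 (median -0.12) and in treated against control lungs 43 of 54 (median -0.35), against 48.1%, 51.9% and 49.4% of all genes. At an adjusted p under 0.05 edgeR called 0 of the 54 in each comparison, and DESeq2 called 0 in each. At an unadjusted p under 0.05 (edgeR), 2 were lower in the first comparison, 2 higher and 1 lower in the second and 3 lower in the third. Both directions together make up 3.70%, 5.56% and 5.56% of the 54, against 12.4%, 5.56% and 4.17% of all genes. For 32 tested genes of intraflagellar transport and the primary cilium, which most lung cells can carry, control library 2 was a median of 1.19 times the other controls, against 1.62 times for the 54 motile cilium genes. It was the highest of the 9 libraries in 20 of the 32 (62.5%) and the highest control in 28 of the 32 (87.5%), shares close to those of the members (63.6% and 86.4%). Over all tested genes these shares were 22.4% and 40.4%. The median log2 fold changes of these 32 genes were -0.13, 0.01 and -0.07 in the 3 comparisons.

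Of the further motile cilium genes, Rfx1, an RFX factor, was at 35.0, 33.3 and 36.1 CPM in control, 28.2, 29.0 and 27.2 CPM in hypoplastic and 34.2, 31.8 and 32.7 CPM in treated lungs. The hypoplastic libraries lay below all others, with a log2 fold change against control lungs of -0.31 ± 0.09 (SE; unadjusted p = 0.00819, edgeR adjusted p = 0.323). Tekt3, a tektin, was at 0.352, 0.214 and 0.298 CPM in control, 0.0915, 0.114 and 0.163 CPM in hypoplastic and 0.369, 0.371 and 0.279 CPM in treated lungs. Its hypoplastic libraries were also the lowest, with log2 fold changes of -1.25 ± 0.48 against control lungs and 1.48 ± 0.46 in treated against hypoplastic lungs (SE; edgeR adjusted p = 0.366 and 0.859), at few counts per library. Dnaaf4, a dynein assembly factor, was lower in treated than in hypoplastic libraries, at 0.395 to 0.634 against 0.760 to 1.49 CPM (log2 fold change -1.08 ± 0.39, SE; edgeR adjusted p = 0.895). In treated against control lungs the smallest p-values were those of Deup1, of the deuterosome on which centrioles are amplified, and Lrrc46, a leucine-rich repeat protein. Their log2 fold changes were -0.68 ± 0.27 and -0.79 ± 0.33 (SE; edgeR adjusted p = 0.998 for both). None of these genes passed the adjusted threshold, and they were named for having the smallest p-values of the 54. Of the 54, 5 were lower in every hypoplastic than in every control library, against 9.05% of all genes. In treated against hypoplastic libraries, 3 of the 54 were higher and 2 lower without overlap, against 5.07% and 4.74% of all genes.

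Markers of other cells were read beside the members. Summed levels of 14 epithelial genes were 2830 to 3110 CPM in control, 2363 to 2815 CPM in hypoplastic and 2714 to 2929 CPM in treated libraries, and their median deviation in control library 2 was 0.10, against 0.70 for the members. Measured against the epithelial genes, the mean log2 CPM of the members was -4.72 in control library 2, against -5.30 and -5.42 in the other controls. In treated libraries it was -5.72, -5.77 and -5.01, and in hypoplastic libraries -5.31, -5.00 and -5.27, so control library 2 was the highest and treated libraries 1 and 2 the lowest of the 9 on this scale. Several lists of other lung cells were high in control library 2 and others were not. Its median deviation was 0.91 for 5 club and secretory genes, 0.86 for 8 alveolar type II genes, 0.77 for 8 alveolar type I genes and 1.22 for 5 red cell genes. It was 0.44 for 6 heart muscle, 0.00 for 5 neuroendocrine, -0.01 for 6 basal airway, -0.45 for 3 mesothelial and -1.89 for 6 neutrophil genes. Control library 2 was the highest of the 9 in 7 of 8 alveolar type II genes, 6 of 8 alveolar type I genes and 5 of 5 red cell genes. It was also the highest in 3 of 5 club and secretory genes and 6 of 14 epithelial genes, against 22.4% of all tested genes. For mesothelial genes this was 1 of 3, and for basal airway, neuroendocrine, heart muscle and neutrophil genes it was 0. The part of these other cells in the members' levels was not tested.

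The summed level of alveolar type II genes was 3244 to 6000 CPM in control, 2316 to 2814 CPM in hypoplastic and 2873 to 4039 CPM in treated libraries, and that of red cell genes 3503 to 10929, 3216 to 6447 and 3666 to 6570 CPM. Alveolar type I genes summed to 1018 to 2051, 824 to 1030 and 910 to 1134 CPM. Club and secretory genes summed to 216 to 398, 190 to 318 and 210.0 to 305 CPM, most of it from Scgb1a1 (9654 to 21609 counts per library). This sum hides Scgb3a1, which ran from 2 to 2018 counts. The highest deviation of any gene in this list was 7.29, in hypoplastic library 1, where the list's median was 0.46. In treated library 3 the median deviation was -0.14 for alveolar type II genes and 0.23 for alveolar type I genes, against 0.24 for the members. Basal airway genes summed to 149.9 CPM in hypoplastic library 1 and 27.2 CPM in hypoplastic library 2, against 7.29 to 16.4 CPM in the other libraries. Heart muscle genes summed to 241 and 113 CPM in those libraries and to 3.96 to 18.0 CPM in the others. Neutrophil genes summed to 6.60 to 12.9 CPM in control, 53.8 to 95.3 CPM in hypoplastic and 18.8 to 79.6 CPM in treated libraries. Neuroendocrine genes summed to 15.0 to 30.3 CPM over all 9 libraries, and mesothelial genes to 179 to 312 CPM. Most of the mesothelial sum was Krt19, which is also among the epithelial genes. It had 8625 to 17882 counts per library, against 803 to 3590 for Msln and 136 to 1177 for Wt1. Without hypoplastic library 1, 20 of the 22 members were below 0 against control lungs, against 49.9% of all genes in that fit. The members' median log2 fold change was then -0.27. Spermatids also build an axoneme, but their markers Prm1, Prm2, Tnp1 and Acrv1 were at 0 in all libraries, Tnp2 at no more than 2 counts and Spaca1 at no more than 5.

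**Figure D4:**
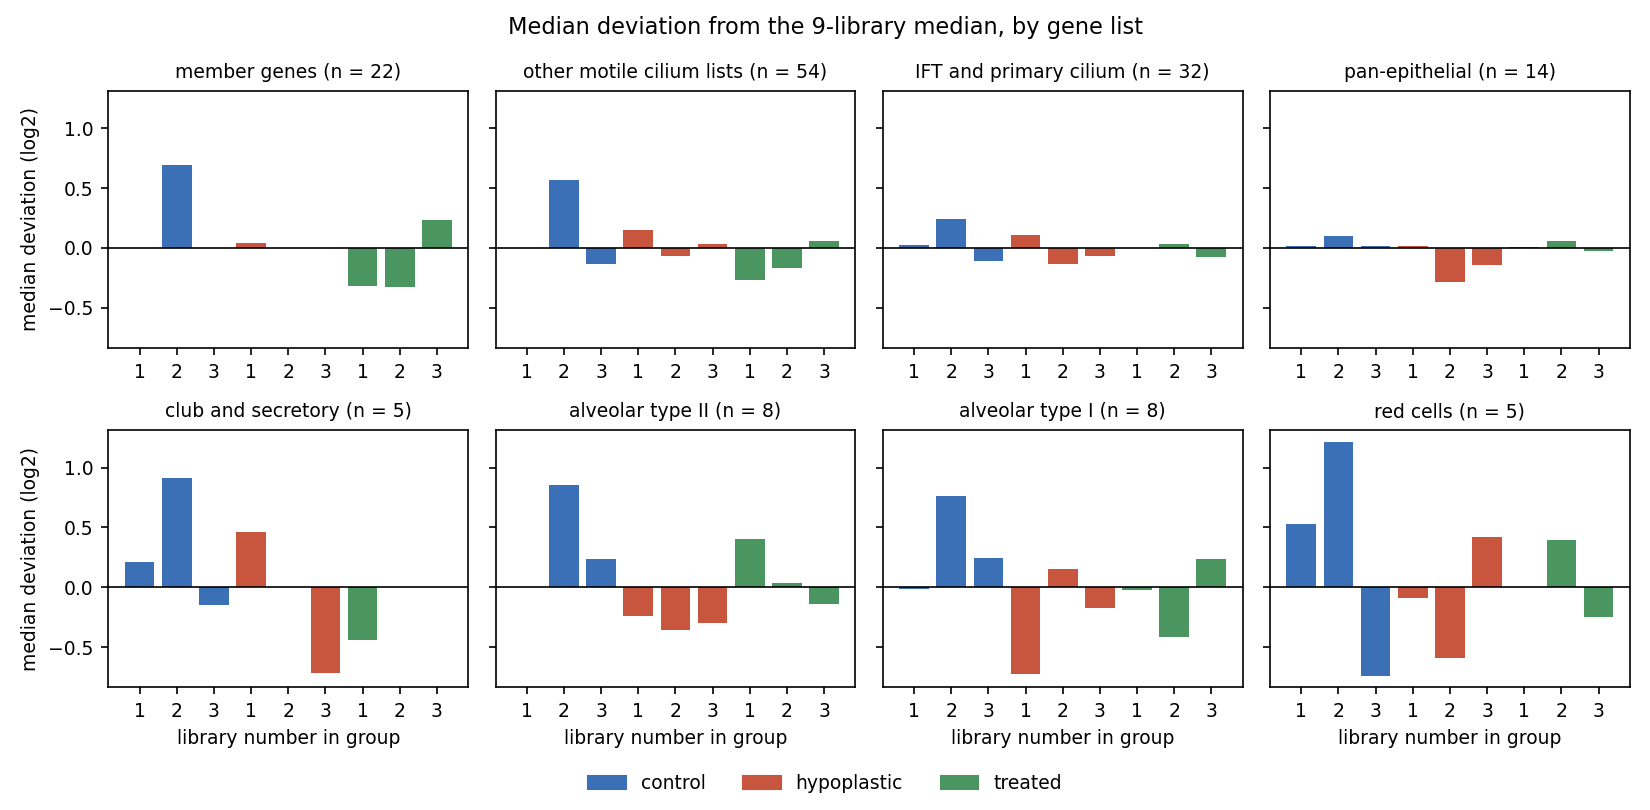
Median deviation from the 9-library median (log2) of 8 gene lists, 1 panel each, with 1 bar per library in the order control 1 to 3 (blue), hypoplastic 1 to 3 (red) and treated 1 to 3 (green). Control 2 has the highest bar in all 8 panels. It is 0.70 for the members, 0.57 for other motile cilium lists, 0.24 for intraflagellar transport and primary cilium genes and 0.10 for epithelial genes. For club and secretory, alveolar type II, alveolar type I and red cell genes it is 0.91, 0.86, 0.77 and 1.22. Basal airway, neuroendocrine, heart muscle, mesothelial and neutrophil genes are not shown, and control 2 did not have their highest median deviation.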

How the data were processed

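The authors deposited 1 table of estimated counts per gene in 9 libraries (19.5% of nonzero values whole), named by NCBI Gene ID, and its column totals differed, so the values were taken as not normalized between libraries. The build rn7 and the tool DESeq2 are named, with no role, per the submitters' processing notes; an aligner or counter is not given in the sources used here, nor is how reads shared by near-identical genes were counted. Symbols came from the RefSeq gene table of GRCr8, used for names only (17314 of 17465 IDs matched). Tests planned for counts were run on these values after rounding to whole numbers. Genes were tested by the quasi-likelihood method of edgeR (edgeR 4.0.16, limma 3.58.1, R 4.3.3) with TMM scaling and filterByExpr, over 9 libraries with a term per group and no covariate. It left 12966 genes and 6 residual degrees of freedom, with Benjamini-Hochberg adjustment over all genes and calls at an adjusted p under 0.05. Standard errors are the absolute log2 fold change over the square root of F and are approximate. Deviations use log2 CPM with a prior count of 2. Libraries of a group differed by at least 132.1 in chi-square per degree of freedom, so none repeated another. The steps were tested on simulated data with less spread than these libraries and with larger fold changes than those of the members. That run cannot show whether differences of the members' size would be found.

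Named members are the regulators, the 2 members of smallest p in each comparison and the 4 of highest mean CPM, and of the further motile cilium genes the 2 of smallest p in each comparison. The members and gene lists were chosen with earlier results of these data known. Alternatives were edgeR's RLE size factors, 2 other low-count filters, DESeq2 1.42.0, the 6 compared libraries alone and each library left out. Others were the replicate number as a block, inferred fetal sex, and removal of 6 ribosomal and 7SL RNA rows. Sex was inferred from the counts, as female where Xist exceeded Ddx3y. It was uneven over the groups, with 1 female and 2 male control libraries. Hypoplastic and treated libraries were 2 female and 1 male in each group.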

Additional observations from a re-analysis of the deposited data

How the results depend on the processing

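Of the members, Spag16 and Sntn had at most 5 and 7 counts per library, and among those tested Dnai1 had 26.0 to 59.0 and Tekt4 31.0 to 74.1; how much of the spread is counting error was not tested. Of 420 values of named members under the alternatives, 401 kept their direction and 19 reversed, and none crossed the threshold; their adjusted p-values ran from 0.367 to 1. Over all genes edgeR called 1, 0 and 0 in the 3 comparisons, in the report's order, and DESeq2 called 202, 17 and 14. With only the 6 compared libraries, 4 genes were called in hypoplastic against control lungs. Leaving out 1 library gave 0 to 45, 0 to 44 and 0 to 1 calls, with the 45 and the 44 when hypoplastic library 3 was left out, 2 and 2 without hypoplastic library 1, 0 in the first comparison without control library 1 or 3, and the 1 in the last without control library 2. Members lower at an unadjusted p under 0.05 were then 0 to 1, 0 to 4 and 0 to 7. In treated against control lungs this count was 3 with DESeq2 (2.73% of all genes) and 0 with fetal sex, inferred from the counts, as a covariate (1.58%). The members' median log2 fold change ran from -0.427 to 0.0904 in hypoplastic against control and from -0.357 to 0.017 in treated against hypoplastic lungs with 1 library left out.

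Leaving out 1 library reversed these log2 fold changes, and the cause was not tested. In hypoplastic against control lungs the values ran from -0.90 to 0.17 for Foxj1, -0.590 to 0.0168 for Rfx2, -0.72 to 0.11 for Ccno, -0.48 to 0.15 for Ccdc39 and -0.16 to 0.10 for Dnah1. In treated against hypoplastic lungs they ran from -0.18 to 0.24 for Foxj1, -0.0795 to 0.0163 for Rfx3, -0.0761 to 0.377 for Ccno, -0.10 to 0.14 for Rsph9 and -0.25 to 0.31 for Cfap52. In treated against control lungs they ran from -0.82 to 0.26 for Foxj1, -0.47 to 0.14 for Rfx2, -0.58 to 0.25 for Ccno and -0.62 to 0.15 for Tppp3.

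The labels do not say that libraries with the same number are related, and correlations of their deviations ran from -0.28 to 0.23 (over 0.1 in 3 of 9 pairs), so the number was not taken as a pairing; 0 libraries correlated best with their own number. With the replicate block, 2 genes were called in hypoplastic against control lungs, Dnah1 stood at -0.00451, and the members' median was -0.25. The block moved no other count of calls past 1.5 times.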
